A study of Mus musculus with 12 samples.

Results

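Immediate early genes are the genes that cells transcribe first, without new protein synthesis, after a growth factor, a stress or an injury. The 10 described here are Jun (ENSMUSG00000052684), Junb (ENSMUSG00000052837), Jund (ENSMUSG00000071076), Fos (ENSMUSG00000021250), Fosb (ENSMUSG00000003545), Atf3 (ENSMUSG00000026628), Egr1 (ENSMUSG00000038418), Ier2 (ENSMUSG00000053560), Dusp1 (ENSMUSG00000024190) and Zfp36 (ENSMUSG00000044786). They were taken by gene symbol, as 10 of the 55891 genes in the deposited table, and not by their values. All 10 reached 1 TPM in at least 6 libraries and were among the 12605 genes tested. Messenger RNA was sequenced from scraped mucosa of the ileum of mice at baseline, 6 ERBB3-dIE mice and 6 Erbb3-FF mice with 1 library each. Litter A gave 3 ERBB3-dIE and 4 Erbb3-FF mice, and litter B gave 3 ERBB3-dIE and 2 Erbb3-FF mice. The series title puts the question in terms of ErbB3, the small intestinal barrier and the junction protein gene Pmp22. The genotype names are used as the labels spell them. Age, sex, strain and the allele or driver behind either name are not given in the labels. The design text calls the mice baseline and names no agent.

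The proteins of these genes work at both ends of a signalling pulse. ErbB3 binds neuregulins and signals as the partner of other ErbB receptors, through phosphatidylinositol kinase and the kinase ERK. ERK and its downstream kinases act on transcription factors at the promoters of early genes, among them the serum response factor with its Elk partners and CREB. Fos and Jun proteins pair to form AP-1, a transcription factor that JNK also activates by phosphorylating Jun. Dusp1 and Zfp36 end the pulse: Dusp1 removes phosphate from the MAP kinases p38, JNK and ERK, and Zfp36 speeds the decay of messages with AU-rich elements. In the intestine, Jun is known for its part in the proliferation of crypt cells downstream of Wnt signalling.

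The promoters of Dusp1, Jun and Fos are shown because these are the members that differed most between the genotypes. Each runs over the 250 bases before the RefSeq start of the gene, from RefSeq on build GRCm38.p6, which is not the GRCm39 build named in the submitters' processing notes. They are written 5′ to 3′ on the gene's strand, and capitals mark the motifs that were searched. Dusp1 (chr17:26508473-26508722, minus strand), Jun (chr4:95052223-95052472, minus strand) and Fos (chr12:85473640-85473889, plus strand) read as follows.
Dusp1: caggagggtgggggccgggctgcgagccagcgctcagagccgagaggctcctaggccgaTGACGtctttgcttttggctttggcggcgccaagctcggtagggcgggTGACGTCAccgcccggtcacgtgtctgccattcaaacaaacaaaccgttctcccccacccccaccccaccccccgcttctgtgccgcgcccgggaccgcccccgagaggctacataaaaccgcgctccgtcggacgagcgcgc
Jun: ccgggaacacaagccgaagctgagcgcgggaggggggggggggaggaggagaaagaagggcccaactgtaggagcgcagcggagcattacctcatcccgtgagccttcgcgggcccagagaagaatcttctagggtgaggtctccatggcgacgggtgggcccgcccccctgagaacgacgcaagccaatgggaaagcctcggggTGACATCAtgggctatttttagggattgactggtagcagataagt
Fos: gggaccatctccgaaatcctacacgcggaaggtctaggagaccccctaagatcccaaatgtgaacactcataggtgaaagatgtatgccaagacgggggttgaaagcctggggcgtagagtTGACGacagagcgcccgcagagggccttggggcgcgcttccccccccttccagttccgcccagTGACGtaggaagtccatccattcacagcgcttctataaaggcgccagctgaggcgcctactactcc
The Dusp1 promoter held the cAMP response element TGACGTCA, the site bound by CREB and ATF proteins, with its first base at position −143 from the start. This motif was in 1.56% of 32536 promoters of the same length, searched on both strands. The Jun promoter held TGACATCA at position −45, a variant of this element known as a site for Jun and ATF2 proteins, which 2.84% of promoters held. The Fos promoter held the core TGACG at positions −129 and −66, and the Dusp1 promoter held it also at position −191. This core, which lies within TGACGTCA on both strands, was in 17.9% of promoters and in 5 of the 8 members for which the table held a promoter (Atf3, Fosb, Junb, Fos and Dusp1). The classical AP-1 site TGACTCA was in none of the 8, against 4.45% of promoters. The CArG box, the site of the serum response factor, was in 1 of the 8, that of Zfp36 at position −58, against 1.48% of promoters. Only these 250 bases were searched, so a member without a match may still carry the site farther from its start. Egr1 and Ier2 are named without a promoter.

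Each library was given as TPM, that is, transcript abundance per length scaled to 1000000 per library, which does not keep the number of reads. The libraries held 12344 to 13364 genes at 1 TPM or more, and mitochondrial genes took 7.94% to 22.1% of the TPM. Ribosomal sequence made up 10.2% of Erbb3-FF mouse 5 and 10.8% of Erbb3-FF mouse 6, against 1.62% or less elsewhere. Erbb3 itself averaged 142 ± 39.9 TPM in ERBB3-dIE mice and 117 ± 23.7 TPM in Erbb3-FF mice (SD, n = 6 each). It was not reduced in ERBB3-dIE at the level of the whole gene (log2 difference 0.16, limma adjusted p = 0.402), so it leaves the genotype labels unchecked.

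Among the 10 genes, Jun was lower and Dusp1 was higher in ERBB3-dIE scrapings, and the other 8 did not pass the test. A gene was called when its adjusted p in limma, over all 12605 genes in a model with litter and genotype, was under 0.05. By that rule 1.66% of all tested genes were higher and 3.7% were lower in ERBB3-dIE, 5.36% in all, and 21.8% had an unadjusted p under 0.05. The members gave 1 call of 10 in each direction, which is not set apart here from these shares, and 1 higher and 3 lower at an unadjusted p under 0.05. The log2 difference was negative for 9 of the 10, with a median of −0.19, whereas over all tested genes 50.07% were negative and the median was −0.00066. All log2 differences are ERBB3-dIE minus Erbb3-FF on the log2(TPM + 0.5) scale.

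**Figure D1:**
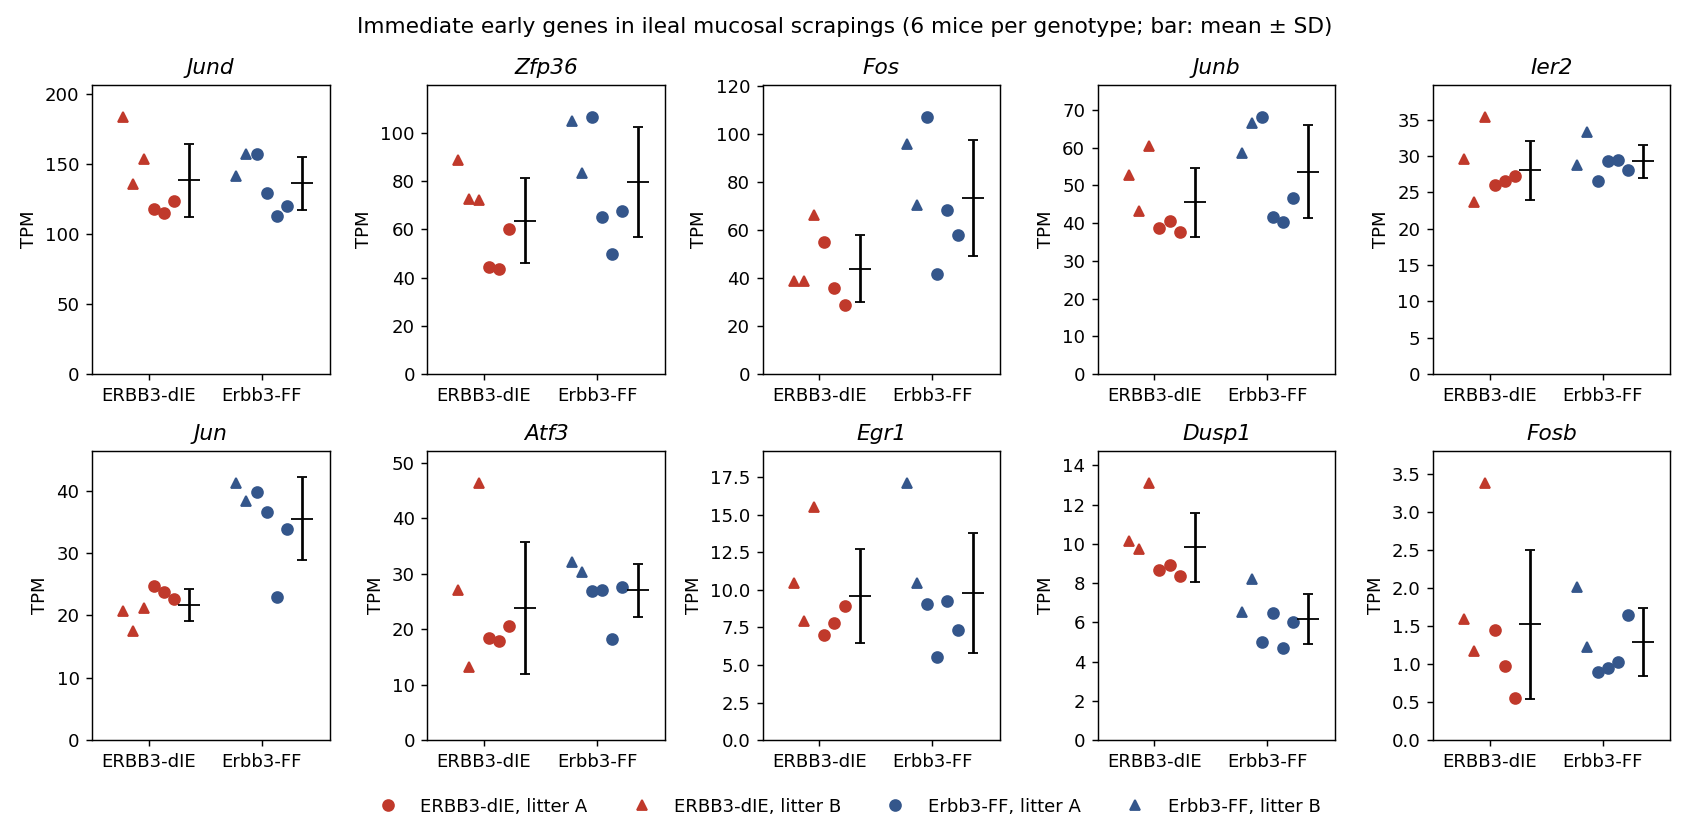
TPM of the 10 immediate early genes in each library, ordered by mean level, with ERBB3-dIE left of Erbb3-FF, circles for litter A, triangles for litter B, and bars for mean ± SD of 6 mice. The genotypes do not overlap for Dusp1 (8.34 to 13.1 TPM in ERBB3-dIE, 4.71 to 8.23 TPM in Erbb3-FF), and for Jun they overlap through a single Erbb3-FF library at 22.9 TPM.

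Jun encodes the AP-1 subunit that gives the Jun family its name. Its lowest, median and highest levels were 17.4, 21.9 and 24.7 TPM in ERBB3-dIE mice, against 22.9, 37.5 and 41.2 TPM in Erbb3-FF mice. Of the 6 ERBB3-dIE libraries, 4 lay below every Erbb3-FF library, and the groups met through Erbb3-FF mouse 5 alone, whose library was rich in ribosomal sequence. The means were 21.7 ± 2.58 TPM in ERBB3-dIE and 35.5 ± 6.67 TPM in Erbb3-FF (SD, n = 6 each), so that ERBB3-dIE stood at 61.2% of the Erbb3-FF mean. Jun fell in ERBB3-dIE by the limma test, with a log2 difference of −0.68 (SE 0.15, 95% interval −1.002 to −0.35, adjusted p = 0.0253). The exact 2-sided permutation p was 0.00649 over 924 relabellings and 0.0114 over the 350 relabellings within litters. Without the 2 libraries rich in ribosomal sequence the limma difference was −0.84 (adjusted p = 0.0096), and over all limma alternatives the adjusted p ran from 0.00412 to 0.41. The call was lost when any of 5 libraries was left out, with an adjusted p of 0.0505 without ERBB3-dIE mouse 3, 0.0508 without ERBB3-dIE mouse 5, 0.0709 without Erbb3-FF mouse 1, 0.0741 without Erbb3-FF mouse 2 and 0.0528 without Erbb3-FF mouse 6. The difference itself stayed between −0.79 and −0.60 in these fits.

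The other Jun genes did not show a difference of this size. Jund, which unlike Jun is expressed steadily in resting cells, was the most abundant member, at 115, 130 and 183 TPM (lowest, median, highest) in ERBB3-dIE and 113, 135 and 157 TPM in Erbb3-FF. The ranges lay almost on top of each other, and the log2 difference was −0.04 (SE 0.10, 95% interval −0.26 to 0.19, limma adjusted p = 0.860). Its sign turned with the scaling, to 0.02 with upper-quartile scaling. Junb, which encodes a subunit that can restrain Jun, had 37.6, 41.8 and 60.5 TPM in ERBB3-dIE and 40.3, 52.6 and 68.1 TPM in Erbb3-FF. These groups overlapped, with a log2 difference of −0.29 (SE 0.13, 95% interval −0.58 to 0.00, limma adjusted p = 0.231). In TPM summed over the 3 Jun genes, Jun made up 8.05% to 13.6% in ERBB3-dIE libraries and 13.03% to 17.7% in Erbb3-FF libraries, which overlapped. The share of Jund was 64.2% to 71.4% in ERBB3-dIE, against 58.6% to 64.0% in Erbb3-FF, without overlap. The gap was narrow, between ERBB3-dIE mouse 5 at 64.2% and Erbb3-FF mouse 5 at 64.0%. The sum also holds Jun, the member called lower, while Jund itself was not called. That of Junb was 20.4% to 25.8% in ERBB3-dIE, against 20.1% to 25.7% in Erbb3-FF. These shares are a description of genes whose levels had been seen, with no test.

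Fos encodes the dimer partner of Jun in AP-1. Its lowest, median and highest levels were 28.7, 38.7 and 66.2 TPM in ERBB3-dIE mice and 41.7, 69.4 and 107 TPM in Erbb3-FF mice. All 6 ERBB3-dIE libraries lay below the Erbb3-FF median and 4 lay below every Erbb3-FF library, but the ranges overlapped because ERBB3-dIE mice 3 and 4 lay above Erbb3-FF mouse 4. The means were 43.9 ± 14.0 TPM in ERBB3-dIE and 73.5 ± 24.1 TPM in Erbb3-FF (SD, n = 6 each). With a log2 difference of −0.78, Fos had the lowest value of the 10, but its spread was wide and it did not pass the limma test (SE 0.24, 95% interval −1.31 to −0.24, adjusted p = 0.0875). The exact 2-sided permutation p for this single gene was 0.0195, and 0.02 within litters. The authors' deposited table, in which 12.6% of 15490 genes have an adjusted p under 0.05, gives Fos a log2 fold change of −0.73 with an adjusted p of 0.00733. The same deposited table calls Jun (−0.69, adjusted p = 1.1e-06) and Dusp1 (0.69, adjusted p = 4.48e-05) and no other member. Fosb, another gene of the Fos family, was the least abundant member at 0.55, 1.31 and 3.39 TPM in ERBB3-dIE and 0.90, 1.121 and 2.02 TPM in Erbb3-FF. Its highest and lowest libraries were both ERBB3-dIE, and the limma difference was −0.00 (SE 0.25, 95% interval −0.55 to 0.54, adjusted p = 0.995), turning to 0.01 with median-ratio scaling and 0.04 with upper-quartile scaling.

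Atf3, Egr1 and Ier2 encode nuclear proteins outside the Fos and Jun families. Atf3, a stress-induced factor of the ATF family that can pair with Jun, had 13.1, 19.4 and 46.4 TPM (lowest, median, highest) in ERBB3-dIE and 18.3, 27.3 and 32.1 TPM in Erbb3-FF. Its ERBB3-dIE range enclosed the Erbb3-FF range, since ERBB3-dIE held both the lowest and the highest library, and its log2 difference was −0.34 (SE 0.24, limma adjusted p = 0.456). Egr1, a zinc finger factor that responds to ERK, had 7.005, 8.42 and 15.5 TPM in ERBB3-dIE and 5.54, 9.15 and 17.1 TPM in Erbb3-FF. The groups overlapped over nearly the whole range, with a log2 difference of −0.10 (SE 0.19, 95% interval −0.52 to 0.33, limma adjusted p = 0.813). Ier2, an early gene with a nuclear product, was the steadiest, at 23.6, 26.9 and 35.3 TPM in ERBB3-dIE and 26.6, 29.0 and 33.3 TPM in Erbb3-FF. Its log2 difference was −0.09 with the narrowest interval of the 10 (SE 0.10, 95% interval −0.30 to 0.12, limma adjusted p = 0.633). A missed threshold does not show that these 3 genes were equal between genotypes, and the interval for Atf3 (−0.87 to 0.19) covered the size of the Jun difference.

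Dusp1, the phosphatase of p38, JNK and ERK, was the only member higher in ERBB3-dIE by the test. Its lowest, median and highest levels were 8.34, 9.32 and 13.1 TPM in ERBB3-dIE mice, against 4.71, 6.25 and 8.23 TPM in Erbb3-FF mice. The ranges did not overlap, which held for 2.44% of all tested genes in either direction. The means were 9.82 ± 1.75 TPM in ERBB3-dIE and 6.16 ± 1.27 TPM in Erbb3-FF (SD, n = 6 each), which put ERBB3-dIE at 159% of the Erbb3-FF mean. The log2 difference was 0.58 (SE 0.11, 95% interval 0.33 to 0.83, limma adjusted p = 0.0180). The exact 2-sided permutation p was 0.00216, and 0.00286 within litters, each the smallest that these designs can give. The limma adjusted p rose to 0.0504 without ERBB3-dIE mouse 5, where the difference was 0.56, and to 0.0512 without Erbb3-FF mouse 1, where it was 0.54. It was 0.05 to the digits kept, and not under the threshold, without the 2 libraries rich in ribosomal sequence (difference 0.55), and it ran from 0.00713 to 0.45 over all limma alternatives.

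Zfp36, which encodes tristetraprolin, a protein that marks AU-rich messages for decay, had 43.5, 66.1 and 88.6 TPM (lowest, median, highest) in ERBB3-dIE mice and 49.8, 75.3 and 106 TPM in Erbb3-FF mice. The groups overlapped over most of their range. The means were 63.5 ± 17.7 TPM in ERBB3-dIE and 79.5 ± 22.9 TPM in Erbb3-FF (SD, n = 6 each), with a log2 difference of −0.41 (SE 0.17, 95% interval −0.79 to −0.03, limma adjusted p = 0.190). The exact 2-sided permutation p was 0.214 over all relabellings and 0.0457 within litters. The sign was opposite to that of Dusp1, but as Zfp36 was not called, no contrast between the pulse-ending members is read from it.

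**Figure D2:**
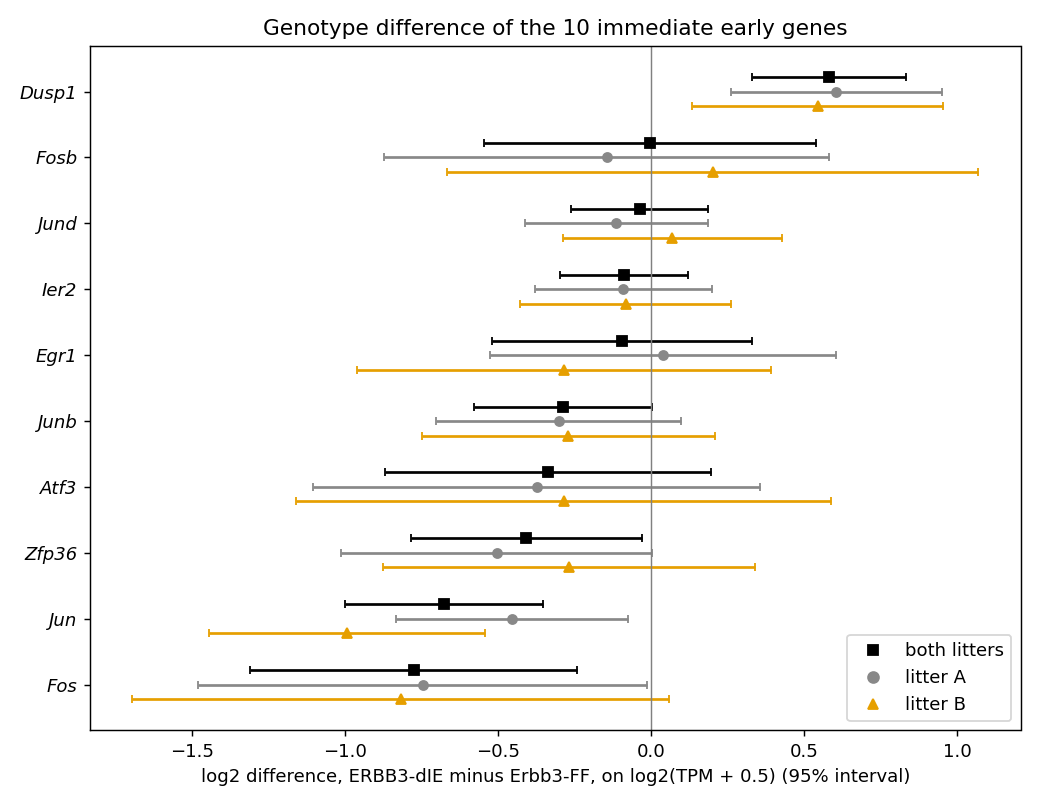
Log2 difference of each gene, ERBB3-dIE minus Erbb3-FF, with its 95% interval, over both litters (black squares) and within litter A (grey circles) and litter B (orange triangles). Dusp1 lies right of 0 and Jun left of 0 with their intervals clear of it in each litter, whereas Fosb, Jund and Egr1 change sign between litters.

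Jun and Dusp1 moved in opposite directions, and their ratio separated the genotypes. As Dusp1 alone already separated them and Jun was lower in ERBB3-dIE, the separation of the ratio is no further support for either difference. The Dusp1 to Jun ratio of TPM ran from 0.352 to 0.618 in ERBB3-dIE libraries and from 0.125 to 0.215 in Erbb3-FF libraries, without overlap. Its mean was 0.461 ± 0.112 in ERBB3-dIE and 0.176 ± 0.0324 in Erbb3-FF (SD, n = 6 each). Erbb3-FF mouse 5, the library with Jun at 22.9 TPM, also had the lowest Dusp1 of all at 4.71 TPM, so its ratio of 0.206 stayed with its own group. The pair was chosen after both differences were known, so no test is given. Since the 12 libraries form separate groups in these genes, their correlation across libraries is not read by itself. It enters only the counts over all pairs of members given below.

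**Figure D3:**
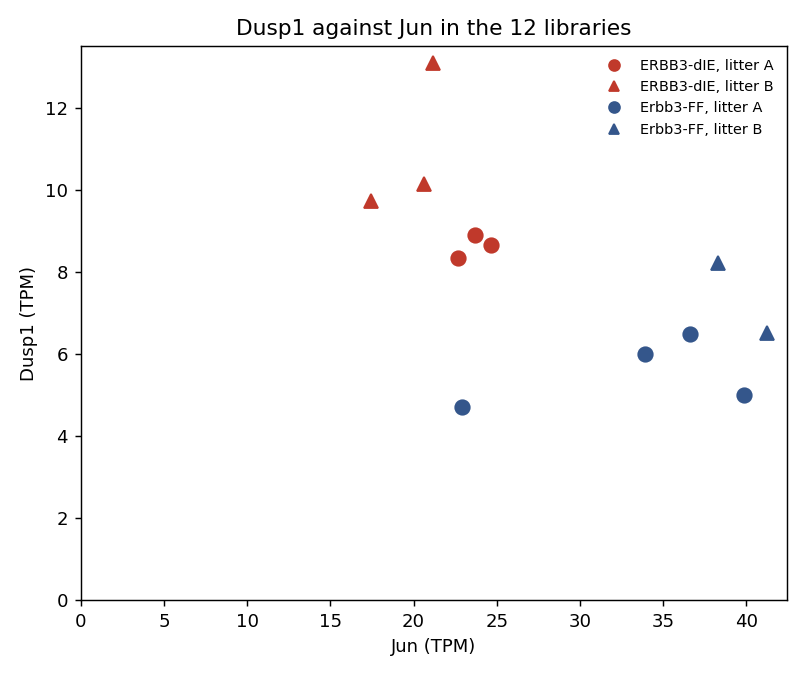
Dusp1 against Jun in TPM for each of the 12 libraries, red for ERBB3-dIE, blue for Erbb3-FF, circles for litter A and triangles for litter B. ERBB3-dIE libraries lie at low Jun (17.4 to 24.7 TPM) and high Dusp1 (8.34 to 13.1 TPM), and Erbb3-FF mouse 5 lies at low Jun (22.9 TPM) and low Dusp1 (4.71 TPM).

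The differences of Jun and Dusp1 had the same sign in both litters. In litter A, Jun averaged 23.7 ± 1.01 TPM in ERBB3-dIE (n = 3) and 33.3 ± 7.36 TPM in Erbb3-FF (n = 4). In litter B it averaged 19.8 ± 2.03 TPM in ERBB3-dIE (n = 3) and 39.8 ± 2.05 TPM in Erbb3-FF (n = 2). The log2 difference was thus −0.46 in litter A (SE 0.17, limma adjusted p = 0.181) and −0.99 in litter B (SE 0.20, limma adjusted p = 0.0522), from a model fitted across both litters. Dusp1 averaged 8.64 ± 0.29 TPM in ERBB3-dIE and 5.55 ± 0.84 TPM in Erbb3-FF of litter A, and 11.0 ± 1.84 TPM in ERBB3-dIE and 7.37 ± 1.21 TPM in Erbb3-FF of litter B. Its ranges stayed apart within each litter, with log2 differences of 0.61 in litter A (limma adjusted p = 0.0799) and 0.54 in litter B (limma adjusted p = 0.204). The Fos difference was −0.75 in litter A (adjusted p = 0.249) and −0.82 in litter B (adjusted p = 0.385). Neither litter alone gave a called member. Fitted alone, litter A called 4 of all 12605 genes as higher and 2 as lower, and litter B called 6 and 9.

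Tested directly, the interaction of litter and genotype was called for 0 of the 10 members by limma, none at an unadjusted p under 0.05. It was called for 0% of all genes, and 9.31% had an unadjusted p under 0.05. The interaction values, litter B minus litter A, ran from −0.54 for Jun (SE 0.27, adjusted p = 0.584) to 0.35 for Fosb (adjusted p = 0.864). Over all tested genes the median interaction was −0.145, and 0.0129 after median-ratio scaling, so the Jun value is set against a shift that depends on the scaling.

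Most members had higher values in litter B, but none passed the test. Egr1, for instance, averaged 12.3 ± 3.85 TPM in litter B (n = 5) and 7.84 ± 1.35 TPM in litter A (n = 7). The log2 difference of litter B minus litter A was 0.60 for Egr1, 0.56 for Fosb, 0.55 for Zfp36, 0.39 for Junb, 0.38 for Atf3, 0.35 for Dusp1, 0.31 for Jund, 0.30 for Fos and 0.13 for Ier2. Jun, at −0.01, was the exception. By limma 0 of the 10 were called, with the smallest adjusted p for Zfp36 at 0.0703, while 8.55% of all genes were called, 7.16% as higher in litter B. At an unadjusted p under 0.05 there were 6 of the 10, against 29.4% of all genes. Without Erbb3-FF mouse 3, 4 members (Junb, Jund, Egr1 and Zfp36) were called as higher in litter B, so this count rested on 1 library. That fit called 1982 of all 12605 genes as higher and 1077 as lower in litter B, against 902 and 176 as reported. The rise in calls was thus not particular to the members. In villus markers Erbb3-FF mouse 3 summed to 19345 TPM, against 6802 to 7694 TPM in the other litter A Erbb3-FF mice. Those of litter B had 15265 and 16570 TPM. In crypt markers it summed to 164 TPM, against 446 to 468 TPM and, in litter B, 243 and 271 TPM. The part of this in the litter values was not tested. The labels do not say whether a litter was also collected or sequenced together.

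The levels of the 10 genes spanned a wide range. Averaged over all 12 libraries, the order was Jund (137 TPM), Zfp36 (71.5 TPM), Fos (58.7 TPM), Junb (49.6 TPM), Ier2 (28.7 TPM), Jun (28.6 TPM), Atf3 (25.4 TPM), Egr1 (9.70 TPM), Dusp1 (7.99 TPM) and Fosb (1.41 TPM). Neighbours in this order were apart in every library, with no overlap of their ranges, at 3 steps, which were Jund above Zfp36, Junb above Ier2 and Dusp1 above Fosb. Atf3 was also above Egr1 in all 12 libraries, although their ranges overlapped. The other neighbours did not differ beyond their spread, as with Zfp36 above Fos in 9 of 12 libraries and Ier2 above Jun in 7 of 12.

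**Figure D4:**
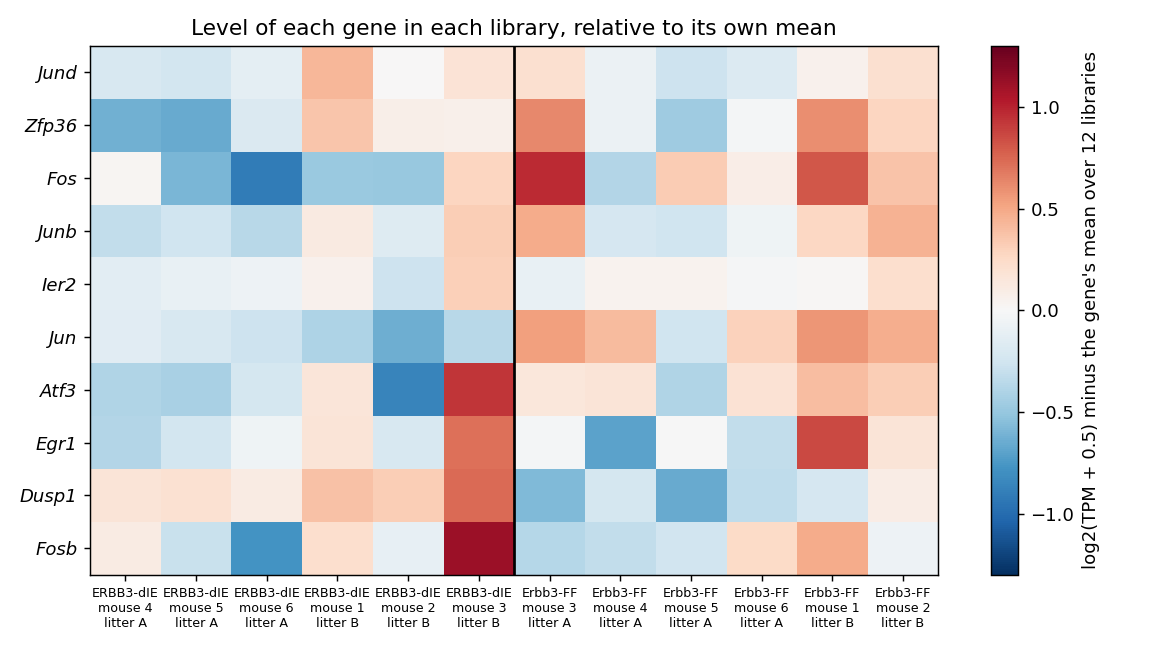
Log2(TPM + 0.5) of each gene minus its own mean over the 12 libraries, with the 6 ERBB3-dIE libraries left of the black line and the 6 Erbb3-FF libraries right of it, and litter A before litter B in each. ERBB3-dIE mouse 3 is the highest library for Fosb, Ier2, Atf3 and Dusp1, and Jun is below its mean in all 6 ERBB3-dIE libraries.

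No library was high or low in all 10 genes. ERBB3-dIE mouse 3 was the highest library in 4 of them (Fosb, Ier2, Atf3 and Dusp1), Erbb3-FF mouse 3 in 3 (Fos, Junb and Zfp36), Erbb3-FF mouse 1 in 2 (Jun and Egr1) and ERBB3-dIE mouse 1 in 1 (Jund). ERBB3-dIE mouse 2 was the lowest in 3 (Jun, Ier2 and Atf3) and ERBB3-dIE mouse 6 in another 3 (Fos, Fosb and Junb). Summed over the 10 genes, the TPM ran from 321 to 487 in ERBB3-dIE and from 357 to 547 in Erbb3-FF. Without ERBB3-dIE mouse 3 and Erbb3-FF mouse 1, the libraries highest in Egr1, Jun had a limma difference of −0.61 (adjusted p = 0.109) and Dusp1 of 0.51 (adjusted p = 0.0820), and 0 members were called. That fit, which called 55 of all 12605 genes as higher and 119 as lower, was chosen after the values were seen.

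Most pairs of members were positively correlated across libraries. Of 45 pairs, 41 had a positive Pearson r over the 12 libraries, with a median of 0.469. No such figures were computed for pairs of other genes, so these are not set apart here as particular to the members. Permutation tests adjusted over the 45 pairs called 4 of them. The libraries were shuffled without regard to genotype or litter, so these p-values also take in differences between those groups. Junb with Zfp36 had r = 0.823 (permutation p = 0.00141, adjusted p = 0.0284; Spearman rho 0.846), r = 0.874 within litter A and r = 0.781 without the 2 libraries farthest from the Junb median. Jund with Zfp36 had r = 0.798 (permutation p = 0.00189, adjusted p = 0.0284; rho 0.867), r = 0.919 within litter A and r = 0.845 without 2 libraries. Junb with Jund had r = 0.778 (permutation p = 0.00345, adjusted p = 0.0388; rho 0.797), r = 0.870 within litter A and r = 0.730 without 2 libraries. These 3 relations thus had a similar r within litter A and without the extreme libraries. However, Erbb3-FF mouse 3 was the highest litter A library for all 3 genes, at 68.1 TPM for Junb, 157 TPM for Jund and 106 TPM for Zfp36. The next highest in litter A were 46.6, 129 and 67.4 TPM. The r within litter A was not computed without that library, so it may rest on it. Ier2 with Atf3 had r = 0.834 (permutation p = 0.00094, adjusted p = 0.0284), but a rho of 0.720 did not pass (adjusted permutation p = 0.121). Its r was 0.293 within litter A and 0.550 without 2 libraries, so it rested on those libraries. Litter B, with 5 libraries, is too small for its own r. After the litter and genotype means were taken out, a step added after the values were seen, the median r was 0.338 and 0 of the 45 pairs were called.

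The genes whose pattern was most like that of the 10 were found over 8597 tested genes with a mean of at least 5 TPM. Likeness was the Pearson r, over 12 libraries, with the mean standardised level of the 10 members. It was 0.941 for Amn1, 0.933 for Vbp1, 0.930 for Map3k11, 0.921 for Msantd4, 0.920 for Mettl9 and 0.913 for Ubap1. Vbp1 encodes a subunit of the chaperone prefoldin, and Map3k11 a kinase upstream of JNK. None of the 6 differed between genotypes by limma, the smallest adjusted p being 0.111 for Amn1. These r values are the highest of many and are given as a description.

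Beyond the 10, a list of 33 other early response genes was read, of which 26 were tested. Of these 26, 5 fell and 0 rose in ERBB3-dIE, where 3.7% of all tested genes fell and 1.66% rose. The median log2 difference of the 26 was −0.34, 20 of them were negative, and the values ran from −1.40 to 0.36. At an unadjusted p under 0.05 the counts were 0 higher and 14 lower, and the authors' deposited table calls 1 as higher and 10 as lower of the 32 list genes that have an adjusted p there. With the villus score as a covariate, given with the cell markers, the median of the 26 was −0.07. Most genes of that score themselves fell in ERBB3-dIE, so that fit cannot separate the score from genotype. The count carries no test of the list.

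**Figure D5:**
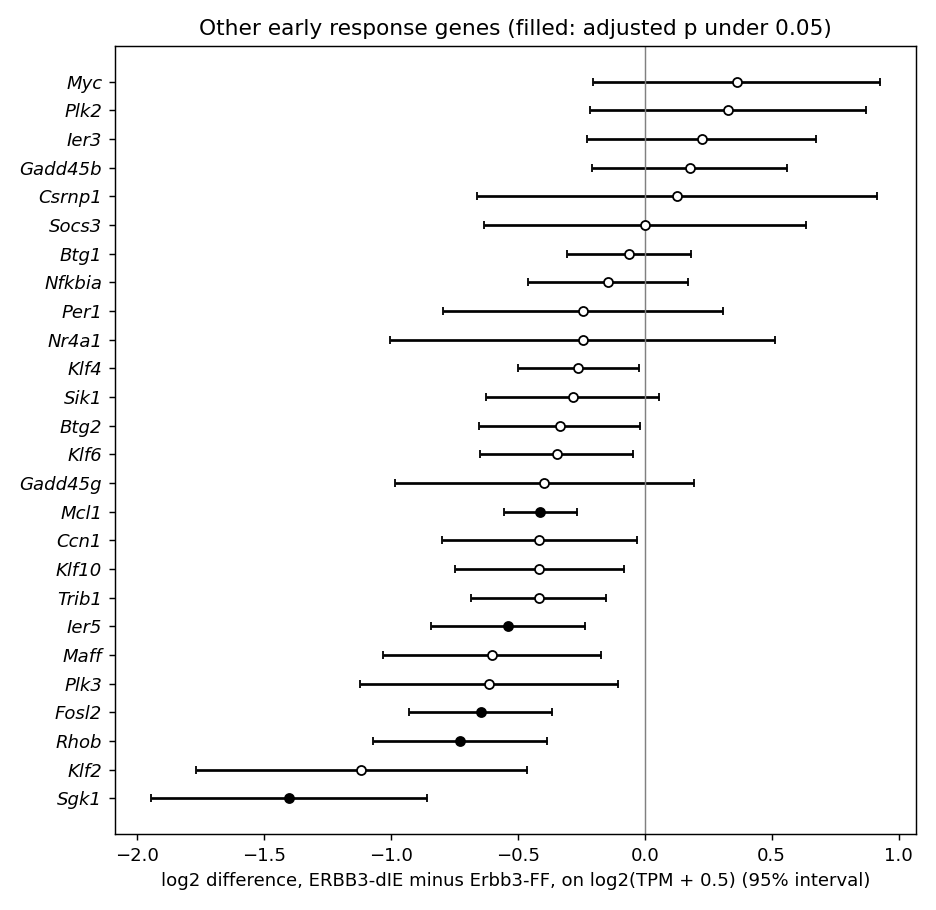
Log2 difference of the 26 other early response genes tested, ERBB3-dIE minus Erbb3-FF on log2(TPM + 0.5), with 95% intervals and filled points for the 5 genes with an adjusted p under 0.05. Sgk1 lies farthest left at −1.40, and Myc farthest right at 0.36 with an interval that spans 0.

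Sgk1, a kinase gene induced by serum, glucocorticoids and mineralocorticoids, averaged 88.6 ± 33.8 TPM in ERBB3-dIE and 219 ± 57.2 TPM in Erbb3-FF (log2 difference −1.40, SE 0.25, limma adjusted p = 0.0109). Its libraries ran from 51.0 to 142 TPM in ERBB3-dIE and from 148 to 281 TPM in Erbb3-FF, without overlap. Rhob, a small GTPase gene of the early response, averaged 24.2 ± 4.05 TPM in ERBB3-dIE and 40.3 ± 7.81 TPM in Erbb3-FF (log2 difference −0.73, SE 0.16, limma adjusted p = 0.0238). Fosl2, which encodes the Fos family protein Fra-2, averaged 31.7 ± 5.01 TPM in ERBB3-dIE and 48.4 ± 12.4 TPM in Erbb3-FF (log2 difference −0.65, SE 0.13, limma adjusted p = 0.0180). Ier5 averaged 26.0 ± 7.14 TPM in ERBB3-dIE and 35.6 ± 8.60 TPM in Erbb3-FF (log2 difference −0.54, SE 0.14, limma adjusted p = 0.0469). The fifth, named after its value was seen, was the survival gene Mcl1 with a log2 difference of −0.41 (SE 0.06, limma adjusted p = 0.00751). Sgk1 and Mcl1 stayed called when any library was left out. Without the litter term Mcl1 (−0.31, adjusted p = 0.444), Fosl2 (adjusted p = 0.111) and Ier5 (adjusted p = 0.288) were not called. The Fosl2 call was lost without Erbb3-FF mouse 1 (−0.60, adjusted p = 0.0531). The Rhob call was lost without ERBB3-dIE mouse 5 (−0.69, adjusted p = 0.0651), ERBB3-dIE mouse 6 (−0.73, 0.0514), Erbb3-FF mouse 1 (−0.68, 0.0659), Erbb3-FF mouse 2 (−0.76, 0.0502) or Erbb3-FF mouse 6 (−0.69, 0.0542). The Ier5 call was lost in 9 of the 12 fits with 1 library left out (all but those without ERBB3-dIE mouse 1, Erbb3-FF mouse 3 or Erbb3-FF mouse 5), with an adjusted p of up to 0.106.

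Among 26 tested genes of the pathways upstream of these promoters (serum response factor, Elk and CREB proteins, and MAP kinases), 0 rose and 1 fell in ERBB3-dIE, with a median of −0.12. Over all tested genes 1.66% rose, 3.7% fell and 21.8% had an unadjusted p under 0.05. The counts of this list are not set apart here from those shares. At an unadjusted p under 0.05 there were 0 higher and 5 lower, and the authors' deposited table calls 0 as higher and 4 as lower. The gene that fell was Mapk8, which encodes JNK1. It averaged 9.91 ± 1.15 TPM in ERBB3-dIE and 15.8 ± 2.53 TPM in Erbb3-FF (SD, n = 6 each), with libraries from 8.39 to 11.5 TPM and from 12.2 to 19.0 TPM in these groups, without overlap. This gave a log2 difference of −0.64 (SE 0.13, limma adjusted p = 0.0171), and the adjusted p was 0.0508 without Erbb3-FF mouse 1 (−0.58) and 0.0504 without Erbb3-FF mouse 2 (−0.62). Among 19 other genes of the AP-1 and related families, 0 rose and 2 fell (median −0.11). At an unadjusted p under 0.05 the counts were 2 higher and 7 lower, and in the authors' deposited table they are 1 higher and 5 lower. The 2 that fell were Fosl2 and Ddit3. The latter encodes the stress factor CHOP and had a log2 difference of −0.68 (limma adjusted p = 0.0292). Ddit3 is uncertain because 2 identifiers carry the symbol, and leaving out any of 7 libraries ended its call, with adjusted p up to 0.0766 without Erbb3-FF mouse 1.

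Other genes that end a kinase pulse were also read. Among 12 tested phosphatase, Sprouty, Spred and related genes, 0 rose and 1 fell, with 6 positive and 6 negative values and a median of 0.01. For all tested genes the shares were 1.66% higher and 3.7% lower, and 21.8% at an unadjusted p under 0.05. At an unadjusted p under 0.05 there were 0 higher and 3 lower, and the authors' deposited table calls 0 as higher and 2 as lower. Errfi1, which encodes an inhibitor of the EGF receptor family, averaged 14.3 ± 3.56 TPM in ERBB3-dIE and 23.8 ± 3.78 TPM in Erbb3-FF (log2 difference −0.73, SE 0.17, limma adjusted p = 0.0298). Its call was lost when any of 7 libraries was left out, with an adjusted p of up to 0.0790 without Erbb3-FF mouse 1. Beside Zfp36, 9 other genes of proteins that bind AU-rich or related messages gave 0 higher and 0 lower, with a median of 0.02, and the smallest p was that of Tial1 (0.22, limma adjusted p = 0.307). None of the 9 had an unadjusted p under 0.05 or was called in the authors' deposited table. Among 6 tested cytokine, chemokine and related genes with unstable messages, 0 were called, and Cxcl10 had the smallest p (0.97, limma adjusted p = 0.108). Cxcl10 was called when Erbb3-FF mouse 4 was left out (1.197, adjusted p = 0.0291). At an unadjusted p under 0.05 there were 2 higher and 1 lower among the 6, and in the authors' deposited table the list has 1 called as higher and 1 as lower.

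Dusp1 is also a known target of the glucocorticoid receptor. Of 14 other genes known to respond to glucocorticoids, or to act in that response, 0 rose and 2 fell (Sgk1 and Errfi1), with a median of −0.18. For all tested genes the shares were 1.66% higher and 3.7% lower, and 21.8% at an unadjusted p under 0.05. Of 13 heat shock genes 0 were called, with a median of −0.01, and Dnajb1 had the smallest p (−0.30, limma adjusted p = 0.114). The log2 differences of the glucocorticoid list ran from −1.40 to 0.99. Whether glucocorticoids or heat shock had a part in the Dusp1 difference was not tested. At an unadjusted p under 0.05 the glucocorticoid list had 1 higher and 4 lower and the heat shock list 0 higher and 2 lower, and the authors' deposited table calls 1 higher and 2 lower in the glucocorticoid list and 0 in the heat shock list.

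The scrapings are mixtures, so fewer cells of a type and less RNA per cell cannot be told apart. Genes of absorptive villus cells moved with the genotype. Of 11 tested villus genes 0 rose and 8 fell in ERBB3-dIE (median −1.44). The summed level of all 12 listed villus genes ran from 2112 to 10296 TPM in ERBB3-dIE and from 6802 to 19345 TPM in Erbb3-FF. With the mean level of the 11 tested villus genes as a covariate, 0 members were called and 0 of the 26 other early genes. The 5 that had fallen then had values of −0.90 for Sgk1, −0.45 for Rhob, −0.25 for Mcl1, −0.19 for Fosl2 and −0.07 for Ier5. Jun then had a limma difference of −0.55 (adjusted p = 0.410), Dusp1 of 0.36 (adjusted p = 0.450) and Fos of −0.42 (adjusted p = 0.703), and Zfp36 turned to 0.39. Over all 12605 genes that fit called 8 higher and 1 lower, against 209 and 467 without the score. As 8 of the 11 genes in the score themselves fell in ERBB3-dIE, this fit cannot separate villus content from genotype. The part of villus cells in the differences was not tested.

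Markers of other cells ranged widely between libraries. The calls in these lists stand beside 1.66% higher and 3.7% lower over all tested genes. Sums of TPM cover every listed gene, tested or not. Of 6 tested smooth muscle genes 0 were called. The sum over all 9 listed ones ran from 6.35 to 125 TPM in ERBB3-dIE, with mice 4 and 5 at the top, and from 10.1 to 43.0 TPM in Erbb3-FF. With the mean level of the 6 tested smooth muscle genes, not this sum, as a covariate, Jun (−0.68, limma adjusted p = 0.0275) and Dusp1 (0.58, limma adjusted p = 0.0203) were still called. The general epithelial list (9 tested, 1 higher and 1 lower) summed to 7702 to 10681 TPM in ERBB3-dIE, against 9388 to 12035 TPM in Erbb3-FF, so the scrapings carried the markers of the labelled tissue. All 8 tested T cell genes had positive differences, with a median of 0.57. Of these, 3 were higher and 0 lower at an unadjusted p under 0.05, and the authors' deposited table calls 3 of the list as higher and 1 as lower. By limma 1 rose, Cd8a, at 12.03 ± 5.80 TPM in ERBB3-dIE and 4.49 ± 0.90 TPM in Erbb3-FF (log2 difference 1.20, limma adjusted p = 0.0380), and the list summed to 44.9 to 125 TPM in ERBB3-dIE, against 29.5 to 134 TPM in Erbb3-FF. The 9 listed macrophage genes (8 tested, 0 called) summed to 55.5 to 113 TPM in ERBB3-dIE, against 49.8 to 261 TPM in Erbb3-FF. The 8 listed B cell genes (2 tested, 0 called) summed to 5.86 to 17.1 TPM in ERBB3-dIE, against 4.62 to 316 TPM in Erbb3-FF. The high B cell sums were those of Erbb3-FF mice 1, 2 and 3, at 316, 144 and 123 TPM. Crypt genes (10 tested, 0 called, median 0.42), connective tissue genes (8 tested, 0 called), endothelial genes (3 tested, 0 called), plasma cell genes (6 tested, 0 called) and mast cell or neutrophil genes (2 tested, 0 called) had no called member. In the lists with 0 calls, at most 1 gene of a list had an unadjusted p under 0.05, and the authors' deposited table calls 2 B cell genes lower, 1 crypt gene higher, 1 connective tissue and 1 plasma cell gene lower and 0 in the smooth muscle, endothelial, macrophage and mast cell or neutrophil lists. The 1 enteric neuron gene tested, Ret, fell (−0.65, limma adjusted p = 0.0467). The part of these cells in the member values was not tested.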

How the data were processed

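RNA of 12 ileal mucosal scrapings was purified with a commercial kit, made into libraries with a stranded mRNA kit and read as single-end reads of 75 bases, per the labels' protocols. CASAVA, Salmon 1.10.0, DESeq2 and build GRCm39 were used, per the submitters' processing notes; which annotation release and which test design they used is not given in the sources used here. The authors deposited TPM per library for 55891 genes, and each library sums to 1000000, so depth is lost and no counting interval can be given. The deposited table also holds the authors' mean normalized signal (baseMean), their log2 fold change, the Wald score that the authors computed, and p-values raw and adjusted by the authors; of these the text prints the log2 fold change and adjusted p.

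No count model suits TPM. The 12605 genes at 1 TPM or more in 6 or more libraries were tested on log2(TPM + 0.5) with limma 3.58.1 in R 4.3.3 (lmFit, eBayes with trend) in a model with litter and genotype, with Benjamini-Hochberg adjustment over all tested genes and a threshold of 0.05. Replicates are separate mice. SD is over mice, and SE and 95% intervals come from limma. The steps were tested on simulated data. Exact permutation tests were 2-sided. The members, the other gene lists and the rule for named genes were chosen with earlier results of these data known. That rule takes all members, per list up to 4 called genes by size or else the gene with the smallest p, and the 6 genes most like the members. Promoters came from RefSeq (GRCm38.p6; 8 of 10 members matched by symbol). Alternatives covered the pseudocount, filter, scaling, robust variance, litter term, a block by mouse number, the litters separately, left-out libraries, 2 covariates, permutation and the authors' test. Figures were drawn with matplotlib 3.10.9.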

Additional observations from a re-analysis of the deposited data

Results flagged for a closer look

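Fosb in ERBB3-dIE mouse 3 stood apart from the other 5 ERBB3-dIE libraries, at 3.39 TPM against 0.55 to 1.598 TPM. The same library was also the highest for Ier2, Atf3 and Dusp1. Of the 30 groups of 6 libraries examined this was the only value past the limit, which chance passes in about 1 of 20 groups.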

How the results depend on the processing

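Of the 10 members, 2 were called as reported. The number was 1 with no filter on low values, where Jun was lost (adjusted p = 0.0531). It was 1 with mouse number as a replicate block, where Dusp1 was lost (0.64, adjusted p = 0.0559), and 1 without the 2 libraries rich in ribosomal sequence. It was 0 in litter A alone, where 4 of all 12605 genes were called higher and 2 lower, and 0 in litter B alone (6 and 9). It was 0 with the villus score as a covariate (8 and 1) and 0 without the 2 libraries highest in Egr1 (55 and 119). Exact permutation within litters, adjusted over all genes, called 0 members and 0 of all genes. The smallest adjusted p of a member was 0.0641 there, for Dusp1, whose permutation p of 0.00286 was already the smallest possible. Counts of 0 in these fits therefore do not set the members apart from other genes. Leaving out 1 library in turn gave 0 to 2 members by genotype, 0 to 4 by litter and 0 to 0 by interaction. Mouse numbers did not pair the libraries: the correlations of same-numbered deviations were 0.0739 to 0.357 and a library matched its own number best for 2 of 6. Of 4 called pairs, 0 were called on residuals. The causes of these changes were not tested.

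The other early genes gave 5 calls as reported, 3 with no filter, 2 with no litter term (Sgk1 and Rhob), 0 in litter A alone, 0 in litter B alone, 0 with the villus score, 2 without the 2 libraries highest in Egr1, 0 by permutation, 11 by the authors' test, and 2 to 7 with 1 library left out. The settings with 0 calls here also called few or 0 of all genes, as given above. With the replicate block Mcl1 was lost (−0.31, adjusted p = 0.0626).

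Fosb turned positive at pseudocount 1 (0.0090), median-ratio (0.011) and upper-quartile scaling (0.040), with no litter term or with the replicate block (0.090 each), in litter B (0.20), without the ribosomal-rich libraries (0.11), with the interaction in the model (0.027) and in the authors' test (0.16). Jund did so at upper-quartile scaling (0.022), with no litter term or the block (0.013 each), in litter B (0.069), with the villus score (0.27) and in the authors' test (0.022). Egr1 did so with no litter term or the block (0.0048 each) and in litter A (0.038), and Junb (0.058) and Zfp36 (0.39) with the villus score. With 1 library left out the range was −0.15 to 0.14 for Fosb, −0.089 to 0.020 for Jund, −0.19 to 0.043 for Egr1, −0.094 to 0.065 for the litter difference of Jun and −0.0037 to 0.62 for the interaction of Fosb. Fos, Ier2 and Atf3 stayed negative, Jun stayed negative and Dusp1 positive under every alternative run. Depth is unknown, which leaves the counting error of low genes such as Fosb unmeasured.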
